A study of Mus musculus with 19 samples.

Results

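Ribosomal protein genes encode the proteins that, with the ribosomal RNAs, build the small and large subunits of the cytosolic ribosome. Their messenger RNAs are among the most abundant of a growing cell, and many start with a run of pyrimidines, the 5′ terminal oligopyrimidine (TOP) tract, through which the mTOR pathway controls their translation. Myc family factors drive ribosome production, and in the gut epithelium cells of the crypt base divide while cells that leave it differentiate.

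The genes were taken by symbol. All symbols starting with Rpl or Rps and a digit were kept, with Rplp0, Rplp1, Rplp2 and Rpsa, and the Rps6k kinases, symbols with a hyphen and symbols with a ps suffix were left out. This gave 87 of 24062 genes in the bulk table, 52 named for the large and 35 for the small subunit, and 86 of 31053 genes in the single-cell matrix, where Rps4l was not listed. Of the 87, 77 are core ribosomal proteins (46 of the large and 31 of the small subunit). The other 10 are second copies of a core gene or other genes that share the symbol: Rpl3l, Rpl7l1, Rpl10l, Rpl22l1, Rpl36al, Rpl39l, Rps4l, Rps27l, Rps27rt and Rps19bp1, the last of which encodes a protein that binds Rps19.

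By its title, the study is about how intestinal stem cells return after they are killed and how this depends on Ascl2, which controls transcription in stem cells at the crypt base. Adult libraries came from mouse colon epithelium on a mixed C57BL/6 and 129/Sv background, sorted on mCherry or GFP. Wild-type stem cells (3 libraries) and regenerating cells (2 libraries) carried an mCherry reporter at Ascl2, together with an EGFP and toxin receptor allele at Lgr5 (Lgr5Dtr-Egfp), and regenerating cells came after diphtheria toxin (50 ug/kg, 4 injections). Knockout cells (2 libraries) carried floxed Ascl2 alleles and an Lgr5 allele with EGFP and Cre, and Ascl2 was deleted with tamoxifen (2 mg on days 1 and 2, then 1 mg), so genotype, allele, drug and sort differ together from wild type. Hindgut libraries held Epcam-positive epithelium of wild-type CD1 embryos at E11, E12, E14 and E16 (2 libraries each), and 1 single-cell library held mCherry-positive, GFP-negative cells with the reporter genotype on day 8 of regeneration. Ages of the adult mice are not given in the labels. Adult and hindgut libraries used different kits and strains, so no fold change or test was taken between them. The labels call the hindgut libraries biological replicates and number the adult ones without saying that they come from separate animals, so p-values measure the spread between these libraries.

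Gene counts ranged from 13826958 to 30583908 per bulk library. Ascl2 stood at 53.8 and 59.2 CPM in the knockout and 104 to 151 CPM in the wild-type libraries, so its RNA was lower but present, and the table does not show which exons the reads cover. CPM, counts scaled to the TMM-adjusted library size of each library, is not corrected for gene length. Levels were therefore compared between libraries, and between genes only as a description beside single-cell UMIs. Epcam was at 1886 to 3299 CPM in adult and 911 to 1428 CPM in hindgut libraries. In bulk libraries, fewer cells with much of a transcript and less of it per cell cannot be told apart.

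The sequence around the annotated start was examined first, because a pyrimidine tract there is the feature these genes are best known to share. RefSeq (GRCm38.p6) held 78 promoters of 66 of the 87 genes. A tract, defined as a C followed by at least 4 bases C or T and beginning within 5 bases of the annotated start, was found in 41.0% of the 78 and in 18.3% of all 32851 promoters. Within the 300 bases of each promoter, CCGGAAGT, a GABP and ETS family motif, was found on either strand in 15.4% of the 78 and 3.89% of all promoters. AAGATGGC, the core of the YY1 motif, was found in 10.3% and 2.75%. Neither motif contains the other, and a match is a description of the letters only. The windows below span 20 bases before to 20 from the start, with the tract in capitals. They belong to genes whose RNA changed most or least in the comparisons that follow, and the first 6 hold a tract.
Rplp2 (chr7:141447631-141447670, plus strand): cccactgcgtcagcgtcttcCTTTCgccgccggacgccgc
Rpl38 (chr11:114668560-114668599, plus strand): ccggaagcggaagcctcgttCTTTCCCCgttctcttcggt
Rps15a (chr7:118116128-118116167, minus strand): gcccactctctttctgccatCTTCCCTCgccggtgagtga
Rps27 (chr3:90213629-90213668, minus strand): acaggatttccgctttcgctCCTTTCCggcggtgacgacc
Rpl39 (chrX:37085203-37085242, minus strand): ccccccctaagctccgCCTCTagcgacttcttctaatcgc
Rps6 (chr4:86857348-86857387, minus strand): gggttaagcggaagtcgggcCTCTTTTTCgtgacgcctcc
Rpl4 (chr9:64173367-64173406, plus strand): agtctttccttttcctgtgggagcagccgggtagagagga
Rplp0 (chr5:115559447-115559486, plus strand): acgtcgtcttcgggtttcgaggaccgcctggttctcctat
Rps28 (chr17:33824543-33824582, minus strand): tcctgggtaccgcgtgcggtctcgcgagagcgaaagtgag
Rpl39l (chr16:10170208-10170247, plus strand): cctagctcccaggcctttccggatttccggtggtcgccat
Rpl10l (chr12:66284382-66284421, minus strand): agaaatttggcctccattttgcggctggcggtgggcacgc

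Of 57 core genes with a promoter in the table, 27 had a tract at an annotated start, as did 3 of 9 of the other symbols (Rpl22l1, Rps27l and Rps27rt). In the knockout, the 27 tested core genes with a tract had a median log2 fold change of 2.06 (23 called up) and the 29 without 1.92 (23 called up). From E11 to E16 the medians were -1.24 (25 of 27 called down) and -1.23 (29 of 29 called down).

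Summed over all 87 genes, counts assigned to ribosomal protein genes made up a small and changing share of bulk gene counts. Reads with more than one alignment are not in these counts, and in the day 8 single cells these genes held 26.2% of UMIs. The bulk share is therefore compared between libraries and not read as the abundance of the transcripts. The share was 1.41%, 1.64% and 1.38% in the wild-type, 1.87% and 1.30% in the regenerating, and 2.41% and 2.98% in the knockout libraries. Both knockout libraries lay above every wild-type library, and the regenerating libraries lay on either side of the wild-type range. The knockout mean of 2.70% ± 0.404 (SD, n = 2) was 1.83 times the wild-type mean of 1.48% ± 0.140 (SD, n = 3), with a two-sided exact permutation p of 0.2, the smallest that 2 against 3 libraries allow. For regenerating against wild type the exact permutation p was 0.8. In the hindgut the share fell with age, from E11 (3.44% and 3.15%) over E12 (2.85% and 2.59%) and E14 (1.74% and 1.86%) to E16 (1.31% and 1.54%). No 2 neighbouring ages overlapped. Across the 8 libraries the share and embryonic day had a Pearson r of -0.97 and a Spearman rho of -0.98 (two-sided exact permutation p = 0.000794 for each). This was 1 of 2 such relations computed, the other, over the core genes, had the same r, rho and p to these digits, and adjustment over both leaves p as it is. Without the E16 libraries, which lie farthest from the median age, r was -0.98 (exact permutation p = 0.0222). The 77 core genes alone gave a share of 3.18% at E11 and 1.37% at E16 and a ratio of 1.77 for knockout over wild type.

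**Figure D1:**
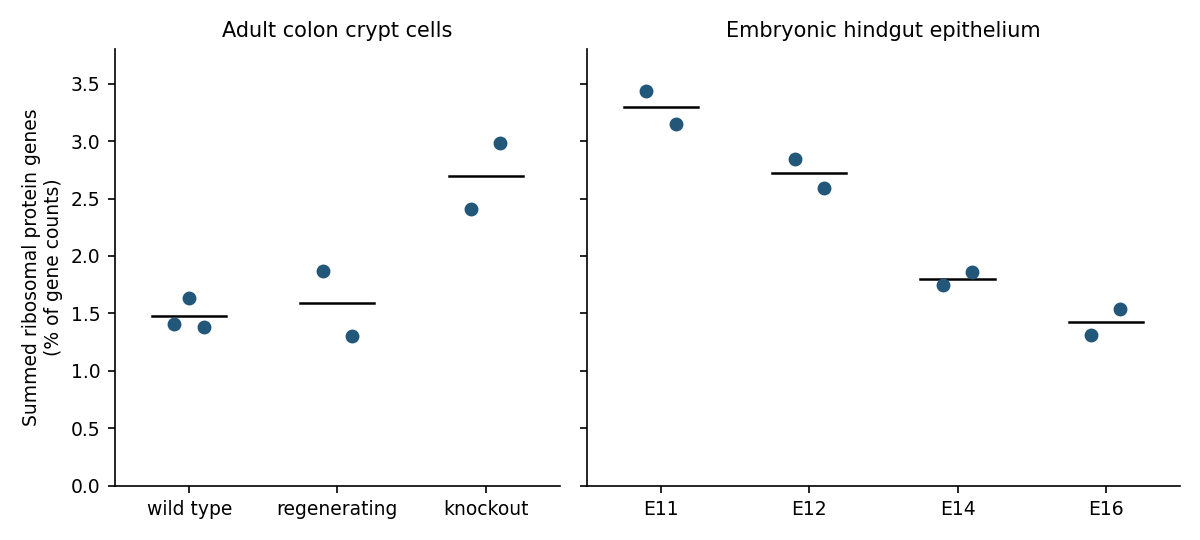
Summed ribosomal protein gene counts as a percentage of all gene counts (vertical axis) in each bulk library (points) by group (horizontal axis), with the group mean as a line. Both knockout libraries lie above the 3 wild-type libraries, and the hindgut libraries fall from 3.44% and 3.15% at E11 to 1.31% and 1.54% at E16.

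Regenerating cells did not differ detectably from wild-type stem cells in these genes. None of the 82 tested genes passed an adjusted p of 0.05 in edgeR's quasi-likelihood test (0.331% of all 13911 genes were called). DESeq2 called 2 of the 82 up, beside 289 up and 181 down of 14648 genes. In edgeR 6 of the 82 had an unadjusted p under 0.05, beside 1460 of all 13911 genes. The median log2 fold change of the 82 was 0.14, beside 0.01 over all genes, and turned to -0.073 without regenerating replicate 1 and -0.05 with library totals, while it was 0.30 without regenerating replicate 2. Rps14, a protein of the small subunit, stood at 517, 679 and 554 CPM in wild-type libraries and at 1847 and 1099.6 CPM after regeneration. All regenerating values lay above all wild-type values, but the log2 fold change of 1.34 ± 0.273 (SE) had an edgeR adjusted p of 0.103. Rpl18 stood at 271 and 144 CPM against 92.8 to 110 CPM (log2 fold change 1.05 ± 0.266, edgeR adjusted p = 0.190). Rpl3, which helps to form the peptidyl transferase centre, stood at 53.0 CPM in regenerating replicate 1 and 2.22 CPM in replicate 2, against 58.4 to 68.6 CPM in wild type. The regenerating libraries differ widely from each other here, and the log2 fold change of -1.24 ± 0.893 had an edgeR adjusted p of 0.769. Rplp0, the base of the ribosomal stalk, stood at 1222 and 905 CPM against 793 to 1053 CPM, which overlap. Rps14 and Rpl18 were chosen after their values were seen.

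In the Ascl2 knockout nearly all ribosomal protein transcripts were higher than in wild type. Of 82 tested genes 69 rose and none fell, while 18.8% of all genes were called up and 17.4% called down in the same comparison by edgeR's quasi-likelihood test. The median log2 fold change was 2.08 for these genes and -0.02 over all genes. In 78 of the 82 both knockout libraries lay above the 3 wild-type libraries, as they did for 29.5% of all genes. Small subunit genes had a median of 2.20 (28 of 31 called) and large subunit genes 1.98 (36 of 45 called). Of the 6 tested other symbols 5 were called, with a median of 2.57. The size of the rise depends on the scaling: with library totals in place of TMM, the median over all genes was -1.001 and that of the ribosomal protein genes 1.09, with 47 called up (8.86% of all genes) and 1, Rpl7l1, called down (38.3% of all genes).

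The stalk proteins, which recruit elongation factors to the ribosome, had unequal fitted changes. Rplp1 stood at 1350.1 and 1622 CPM in the knockout and 243, 304 and 265 CPM in wild type, a 5.49-fold difference (log2 fold change 2.46 ± 0.220, edgeR adjusted p = 8.12e-05). Rplp2 stood at 664 and 634 CPM against 99.4, 98.8 and 87.4 CPM (log2 fold change 2.77 ± 0.190, edgeR adjusted p = 5.42e-05). Rplp0, their anchor, stood at 1328 and 1817 CPM against 811, 1053 and 793 CPM, a log2 fold change of 0.83 ± 0.245 (edgeR adjusted p = 0.0272). The groups do not overlap for any of the stalk genes, but the call of Rplp0 was lost without knockout replicate 2, wild-type replicate 1 or 3, or regenerating replicate 2, and its sign turned with library totals (-0.15).

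The 4 highest log2 fold changes among called genes with a mean of at least 5 CPM were those of Rps29, Rpl38, Rps27 and Rps4l. Rps29, a zinc-binding protein of the small subunit, stood at 20.7 and 16.95 CPM in the knockout and 1.79, 1.14 and 1.76 CPM in wild type (log2 fold change 3.58 ± 0.519, edgeR adjusted p = 0.000855). Rpl38 stood at 32.7 and 29.6 CPM against 3.99, 3.30 and 3.27 CPM (log2 fold change 3.14 ± 0.386, edgeR adjusted p = 0.000362). Rps27, another zinc-binding small subunit protein, stood at 13.1 and 9.16 CPM against 1.76, 1.05 and 0.974 CPM (3.14 ± 0.667, edgeR adjusted p = 0.00627). Rps4l, which RefSeq lists as a transcribed pseudogene related to Rps4x, stood at 85.5 and 90.7 CPM against 9.83, 3.83 and 20.4 CPM (2.96 ± 0.588, edgeR adjusted p = 0.00453). Rps29, Rpl38 and Rps27 reached that mean only through the knockout libraries, so their rank rests in part on the change itself. Among called genes with a wild-type mean of at least 5 CPM, a limit set after the values were seen, Rps4l, Rps28 (2.90), Rpl36al (2.78) and Rplp2 (2.77) were highest. Rpl41, which encodes one of the shortest known eukaryotic proteins, stood at 1818 and 2279 CPM against 294 to 328 CPM.

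Among the same called genes, the 4 smallest log2 fold changes were those of Rplp0, Rpl7 (1.01 ± 0.218), Rpl7a (1.08 ± 0.240) and Rps2 (1.08 ± 0.228). Rpl4, one of the largest proteins of the large subunit, stood at 1122 and 1495 CPM in the knockout and 998, 934 and 1107 CPM in wild type (log2 fold change 0.37 ± 0.221, edgeR adjusted p = 0.228). Rps6, the substrate of the S6 kinases, stood at 9.24 and 20.9 CPM against 13.8 to 15.4 CPM, and its groups overlap. Rpl3 stood at 74.2 and 73.3 CPM against 58.4 to 68.6 CPM (0.18 ± 0.855, edgeR adjusted p = 0.893). In the 13 genes that did not pass, the values spanned log2 fold changes from -0.23 (Rpl7l1) to 1.97 (Rps23). They were Rpl3, Rpl4, Rpl5, Rpl7l1, Rpl10, Rpl10a, Rpl15, Rpl23a, Rpl24, Rpl28, Rps6, Rps12 and Rps23. Scaled to their own sum, 11 ribosomal protein genes were higher and 9 lower in the knockout by edgeR's quasi-likelihood test (3.00% and 54.9% of all genes), so their proportions changed as well as their total. Among the 20 called on this scale, Rps28 (1.06), Rpl36al (0.93), Rplp2 (0.93) and Rps27l (0.91) had the highest log2 values and Rpl7l1 (-2.07), Rps6 (-1.81), Rpl15 (-1.53) and Rpl4 (-1.50) the lowest. Rps29 (1.74), Rps27 (1.30), Rpl38 (1.30), Rps4l (1.08) and Rpl3 (-1.66) had values as far out that did not pass.

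**Figure D2:**
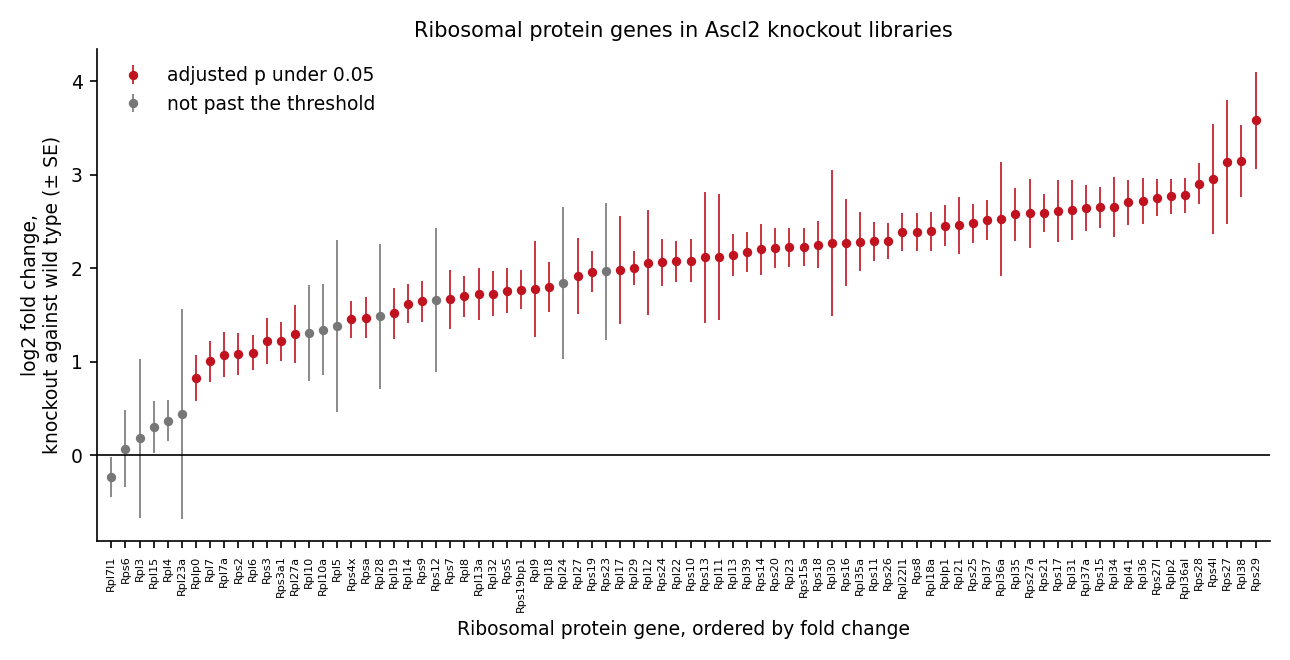
Log2 fold change of knockout against wild type with its standard error (vertical axis) for the 82 tested ribosomal protein genes ordered by size (horizontal axis), from the edgeR fit with TMM scaling, red where the adjusted p was under 0.05. Values run from -0.23 for Rpl7l1 to 3.58 for Rps29, and 69 genes are red.

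Rpl5 and Rpl11, which with 5S RNA bind Mdm2 when ribosome assembly fails, had few counts in the adult libraries. Rpl11 stood at 6.43 and 8.34 CPM in the knockout and 1.48 to 1.88 CPM in wild type (log2 fold change 2.12 ± 0.672, edgeR adjusted p = 0.0357, a call lost whichever of the 7 libraries was left out), and Rpl5 at 2.35 and 3.12 CPM against 0.818 to 1.32 CPM (1.38 ± 0.921, edgeR adjusted p = 0.279). Rps27a, made as a fusion with ubiquitin, stood at 31.2 and 26.6 CPM against 3.83 to 5.84 CPM (2.59 ± 0.373, edgeR adjusted p = 0.000845). Rpsa, also known as the laminin receptor, stood at 195 and 195 CPM against 64.3 to 80.2 CPM (1.47 ± 0.216), and Rps3, which also acts in DNA repair, at 1813 and 2141 CPM against 778 to 964 CPM (1.22 ± 0.246).

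Of the 6 tested paralogs and other symbols 5 rose. Rps27l, a p53 target in human cells, stood at 2733 and 2677 CPM in the knockout and 423, 388 and 390 CPM in wild type (log2 fold change 2.76 ± 0.197, edgeR adjusted p = 5.42e-05), beside 3.14 for Rps27. Rpl36al stood at 734 and 689 CPM against 98.8 to 112 CPM (2.78 ± 0.186), beside 2.53 ± 0.614 for Rpl36a. Rpl22l1 stood at 257 and 318 CPM against 50.1 to 59.3 CPM (2.38 ± 0.201), beside 2.07 ± 0.218 for Rpl22, the gene whose product is known to restrain Rpl22l1. Rps19bp1 rose by 1.77 ± 0.207 on the log2 scale. Rpl7l1, whose product acts in large subunit assembly, stood at 163 and 156 CPM against 152 to 219 CPM, which overlap, while Rpl7 rose. Differences between paralog and parent were not tested.

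Other genes of protein synthesis gave a mixed picture. The counts of rises and falls below are calls, beside 18.8% of all genes called up and 17.4% called down. Fau and Gnb2l1 (Rack1), which encode ribosomal proteins outside the symbol rule, both rose, with log2 fold changes of 3.12 and 1.37. Of 77 genes for proteins of the mitochondrial ribosome 61 rose and 2 fell, led by Mrps21 (3.07) and Mrps18c (2.91) and on the other side by Mrps2 (-1.09) and Mrps27 (-1.04). Of 24 translation factors and other TOP genes 9 rose and 3 fell, with Naca (1.91) and Hnrnpa1 (1.86) highest and Eif4g2 (-0.85) and Eif3l (-0.75) lowest. Of 47 tested genes for ribosome assembly and the nucleolus 12 rose and 16 fell, with a median of -0.77. Nop10 (2.92), a part of box H/ACA particles, and Polr1d (2.18) rose most, and Polr1b (-2.65), a subunit of RNA polymerase I, and Bop1 (-2.18) fell most. Myc stood at 28.8 and 32.6 CPM in the knockout and 186, 184 and 117 CPM in wild type (log2 fold change -2.40 ± 0.330, edgeR adjusted p = 0.000648). Larp1, a TOP-binding repressor, fell by 1.21, and Eif4ebp1 (2.05) and Rheb (1.66) rose.

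The knockout libraries differed from wild type in other ways that run alongside. Reads with more than one alignment made up 51.2% and 51.4% of reads in the knockout and 39.1% to 40.2% in wild type. TMM factors were 0.616 and 0.660 against 1.21 to 1.32. Summed stromal markers were at 132 and 227 CPM against 5.26 to 12.1 CPM, with 9 of 10 tested genes above the wild-type range and 6 to 7 of 11 at 0 in each wild-type library. Summed immune markers were at 1157 and 621 CPM against 24.4 to 65.8 CPM, with 7 of 12 above the range and 0 to 6 of 12 at 0 in each wild-type library. Enteroendocrine markers summed to 1847 and 2506 CPM against 80.2 to 199.6 CPM (4 of 9 called up) and deep crypt secretory markers to 15485 and 33486 CPM against 1494 to 4258 CPM (5 of 7 called up, 1 called down). Goblet markers summed to 28257.5 and 29415 CPM against 2262 to 6359 CPM. Of these 11 genes 4 were called up and none down, and 3 had a log2 fold change below 0. Stem markers summed to 469 and 506 CPM against 1355 to 1628 CPM, with 8 of 11 called down. Over all genes, 29.5% lay above the wild-type range in both knockout libraries, 18.8% were called up and 17.4% down. The part of these differences in the rise was not tested.

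From E11 to E16 ribosomal protein transcripts fell in the hindgut epithelium. Of 84 tested genes 80 fell and none rose by edgeR's quasi-likelihood test, while 26.2% of all genes were called down and 29.6% called up. The median log2 fold change was -1.26, beside 0.05 over all genes. In 83 of the 84 both E16 libraries lay below both E11 libraries, as in 36.8% of all genes. Large subunit genes had a median of -1.16 (43 of 45 called) and small subunit genes -1.31 (30 of 31 called). The 4 genes that did not pass, Rpl10l, Rpl30, Rpl34 and Rps27, all had a mean under 7 CPM in both ages.

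**Figure D3:**
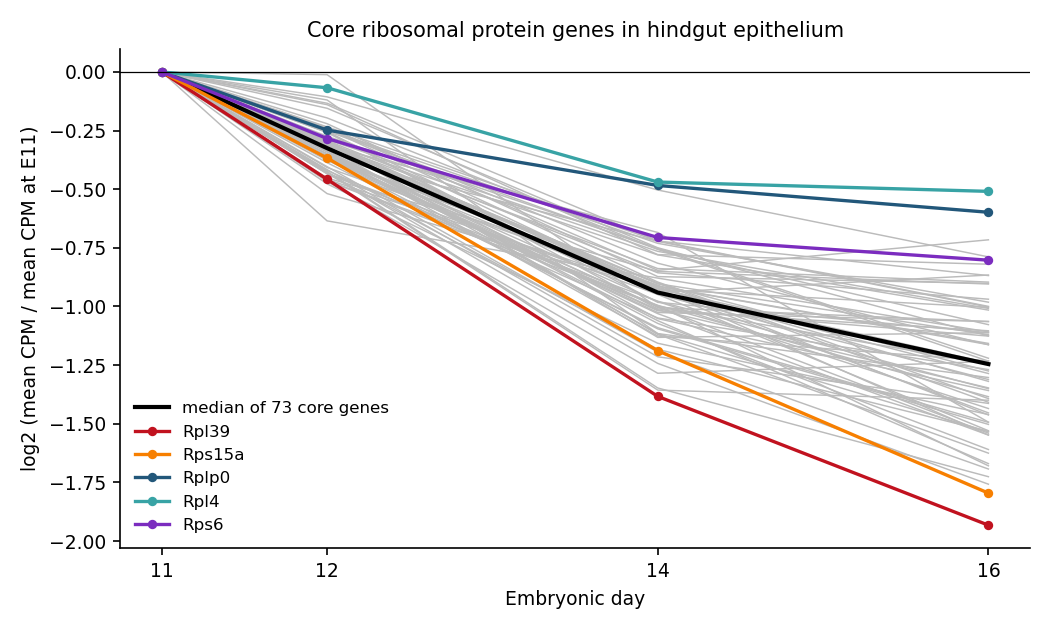
Mean CPM at each age relative to E11 on a log2 scale (vertical axis) against embryonic day (horizontal axis) for 73 core genes with a hindgut mean of at least 10 CPM (grey lines), their median (black) and 5 named genes. Rpl39 ends at -1.93 and Rps15a at -1.80, while Rpl4 ends at -0.51 and Rplp0 at -0.60.

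The steepest falls among called genes with a mean of at least 5 CPM were those of Rpl39, Rps15a, Rps28 and Rps21. Rpl39, a short protein of the exit tunnel, went from 201 and 160 CPM at E11 through 131 and 132 at E12 and 67.1 and 71.3 at E14 to 36.7 and 57.9 CPM at E16 (log2 fold change -1.93 ± 0.213 from E11 to E16, edgeR adjusted p = 0.000204). Rps15a went from 342 and 270 CPM to 73.1 and 103 CPM (-1.80 ± 0.182), Rps28 from 150 and 139 CPM to 37.3 and 48.0 CPM (-1.76 ± 0.151), and Rps21 from 279 and 243 CPM to 65.3 and 92.4 CPM (-1.73 ± 0.168). For each of them both libraries of every later age lay below both of the age before. Rpl39l, below that mean, had a larger fitted fall, with log2 fold changes of -5.10 to -4.12 over the libraries left out. It had 2 and 1 counts in the E16 libraries, and its call was lost without E16 replicate 1 or E16 replicate 2. The smallest falls among called genes with a mean of at least 5 CPM were those of Rplp0, Rpl4, Rpl7l1 and Rps19bp1. Rplp0 went from 959 and 931 CPM through 813 and 779 and then 647 and 704 to 599.7 and 649 CPM (-0.60 ± 0.0815, edgeR adjusted p = 0.00059). Rpl4 went from 1537 and 1510 CPM to 1001 and 1139 CPM (-0.51 ± 0.0887, edgeR adjusted p = 0.002), Rpl7l1 from 244 and 277 CPM to 176 and 203 CPM (-0.46 ± 0.115, edgeR adjusted p = 0.0110), and Rps19bp1 from 57.1 and 54.4 CPM to 39.4 and 44.9 CPM (-0.40 ± 0.136, edgeR adjusted p = 0.0359). The call of Rps19bp1 was lost whichever of the 8 libraries was left out, and that of Rpl7l1 without E16 replicate 1.

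Scaled to their own sum, 9 ribosomal protein genes were higher and 22 lower at E16 than at E11 (60.0% and 5.07% of all genes), so here too the proportions changed. Rpl39 (-0.80), Rps15a (-0.65) and Rps28 (-0.61) were among the lower and Rplp0 (0.55), Rpl4 (0.64) and Rps6 (0.35) among the higher on this log2 scale. In the knockout, Rps28 was high and Rplp0, Rpl4 and Rps6 low on the same scale. Across 63 ribosomal protein genes at 10 CPM or more in both comparisons, which share no library, the log2 fold changes of knockout against wild type and of E16 against E11 had a Pearson r of -0.41 and a Spearman rho of -0.28, and over all 82 tested in both -0.25 and -0.21, given as a description.

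Most other genes named by rule fell too. Rplp1 (log2 fold change -1.13) and Rplp2 (-1.36) had larger fitted falls than Rplp0. Rpl5 went from 241 and 212 CPM to 98.5 and 116 CPM (-1.08 ± 0.115) and Rpl11 from 333 and 305 CPM to 112 and 124 CPM (-1.44 ± 0.106). The values were -1.61 for Rps27a, -1.23 for Rps3, -0.9997 for Rpsa, -0.80 for Rps6, -0.79 for Rpl3 and -0.97 for Rpl10. Of the paralog pairs, Rps27l was at -1.29, while Rps27, which did not pass, stood at 1.58 and 1.95 CPM at E11 and 1.29 and 1.73 CPM at E16, which overlap. The other pairs were Rpl36al (-0.69) with Rpl36a (-1.53), Rpl22l1 (-1.30) with Rpl22 (-1.67), Rpl7l1 with Rpl7 (-1.45), and Rps4l (-1.41) with Rps4x (-1.55). Differences within a pair were not tested.

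The fall was spread over the steps. From E11 to E12, 1 gene passed the test (0.874% of all genes called down), Rpl41, which went from 406 and 432 CPM to 289 and 251 CPM (log2 fold change -0.64 ± 0.111, edgeR adjusted p = 0.0326, a call lost without any 1 library except E11 replicate 1). The median was -0.31, and both E12 libraries lay below both E11 libraries in 74 of 84 genes (20.9% of all genes). DESeq2 called 26 down, beside 633 of 16441 genes. From E12 to E14, 71 of 84 fell (13.9% of all genes), with a median of -0.63. Rps24 (-0.996 ± 0.130) and Rps29 (-0.93 ± 0.153) fell most among called core genes and Rps6 (-0.42 ± 0.0897), Rpl4 (-0.40 ± 0.0886), Rps2 (-0.40 ± 0.103) and Rpl3 (-0.40 ± 0.0896) least among called genes. From E14 to E16, 23 of 84 fell (19.0% of all genes), close to the share over all genes, with a median of -0.28 that was -0.15 without E16 replicate 1 and -0.40 without E16 replicate 2. Rpl17 (-0.81 ± 0.130), Rps26 (-0.68 ± 0.127), Rps13 (-0.62 ± 0.136) and Rpl22 (-0.61 ± 0.148) fell most and Rpl24 (-0.41 ± 0.110), Rpl14 (-0.38 ± 0.116), Rpl3 (-0.29 ± 0.0898) and Rpsa (-0.28 ± 0.0776) least among called genes. Neighbouring steps share an age, so their values are given side by side only. The counts from E12 to E14 and from E14 to E16 rest on single libraries. Calls over all genes were also fewer whenever a library of the 2 ages compared was left out, so the changed counts are not particular to these genes. From E12 to E14 the median was -0.52 without E14 replicate 1, -0.64 without E14 replicate 2 and -0.57 without E12 replicate 1. From E14 to E16 it was -0.33 without E14 replicate 1 and -0.23 without E14 replicate 2.

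Other genes of protein synthesis fell over the same days. The counts of falls and rises below are calls, beside 26.2% of all genes called down and 29.6% called up. Fau and Gnb2l1 both fell from E11 to E16, with log2 fold changes of -0.94 and -1.19. Of 77 mitochondrial ribosomal protein genes 60 fell and none rose, led by Mrpl34 (-1.68) and Mrpl13 (-1.54). Of 24 translation factors and other TOP genes 17 fell and none rose, led by Eef1b2 (-1.60) and Eif3m (-1.37). Of 47 assembly and nucleolar genes 26 fell and 3 rose, with Npm1 (-2.07), a nucleolar chaperone, and Polr1c (-1.39) lowest and Rrp12 (1.01) and Tsr1 (0.56) highest. Mycn went from 243 and 282 CPM at E11 over 347 and 319 (E12) and 274 and 283 (E14) to 45.0 and 44.5 CPM (E16) (-2.55 ± 0.107, edgeR adjusted p = 4.40e-06). Myc moved the other way, from 27.6 and 55.2 CPM to 165 and 158 CPM (1.96 ± 0.280, edgeR adjusted p = 0.000744). Max rose by 1.18 and Eif4ebp2 fell by 1.198 on the log2 scale.

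Markers of other cells were much higher at E16. Summed stromal markers were at 9981 and 8479 CPM at E16, 176 and 191 CPM at E14 and 60.5 and 80.5 CPM at E11, with 11 of 11 genes above the E11 range and 1 to 2 at 0 at E11. Summed immune markers were at 2560 and 2709 CPM at E16, 93.5 and 90.8 CPM at E14 and 21.2 and 14.02 CPM at E11, with 5 to 8 of 12 at 0 at E11. The mitotic list had 11 of 12 genes called down from E11 to E16 and the goblet list 11 of 11 called up. Over all genes 26.2% were called down and 29.6% up. Ambiguous reads numbered 5.93 and 7.30 per 100 gene counts at E16 and 1.43 to 1.76 at the earlier ages. Their part in the fall to E16 was not tested. From E11 to E14 the share went from 3.29% ± 0.201 to 1.80% ± 0.0859 (SD, n = 2 each). Stromal sums went from 60.5 and 80.5 CPM to 176 and 191 CPM over these ages. Immune sums went from 21.2 and 14.02 CPM to 93.5 and 90.8 CPM. The part of these cells in the fall to E14 was not tested either.

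Rpl10l and Rpl39l are copies of Rpl10 and Rpl39 known from the male germ line. Rpl10l was at 14.2 CPM in E12 replicate 1 and at 0.413, 0.390 and 0.453 CPM in both E11 libraries and E12 replicate 2. In the E14 libraries it had no count, and the E16 libraries had 0 and 1 count. Rpl39l was at 23.1 CPM in E12 replicate 1, 1.84 and 3.64 CPM at E11, 2.44 CPM in E12 replicate 2, and 0 to 0.123 CPM later. It passed edgeR's test from E12 to E14 (adjusted p = 0.00544), as did Rpl10l (adjusted p = 0.0211), whose call was lost without E12 replicate 1, E14 replicate 1 or E14 replicate 2. Rps4l showed the same library as highest, at 220 CPM beside 107 to 136 CPM in the other E11 and E12 libraries. Their parents did not stand out there: Rpl10 was at 368 CPM and Rpl39 at 131 CPM in E12 replicate 1, beside 356 and 132 CPM in replicate 2. Germ cell genes, chosen after these values were seen, were highest in that library. Dppa3 was at 131 CPM against 12.1 CPM in E12 replicate 2, Dppa5a at 182 against 16.7 CPM, Pou5f1 at 45.8 against 3.56 CPM, Ddx4 at 22.4 against 1.57 CPM and Dazl at 121 against 18.2 CPM. With Nanog these 6 genes summed to 522 CPM there, 52.3 to 126 CPM in the other E11 and E12 libraries and 0.801 to 2.07 CPM at E14 and E16. The part of germ cells in the paralog counts was not tested.

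**Figure D4:**
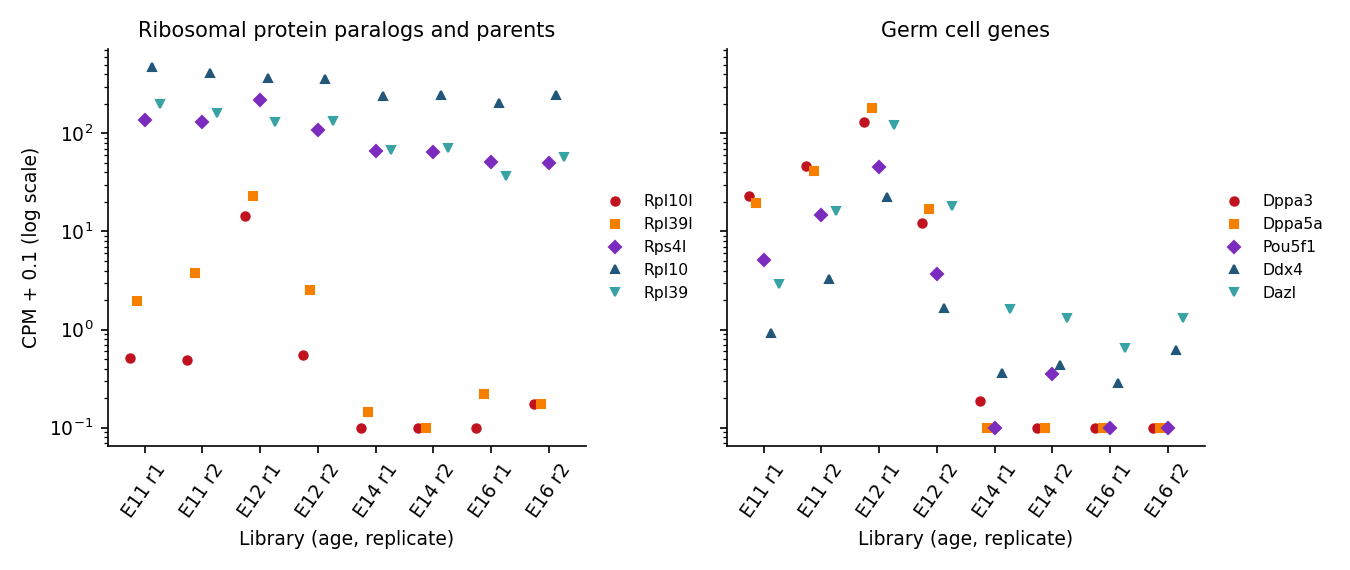
CPM plus 0.1 on a log scale (vertical axis) in each hindgut library (horizontal axis, age and replicate) for 3 paralogs and the parents Rpl10 and Rpl39 (left) and for 5 germ cell genes (right), where a point at 0.1 is a library with no count. Rpl10l (14.2 CPM), Rpl39l (23.1 CPM), Rps4l (220 CPM) and the germ cell genes peak in E12 replicate 1, and the parents do not.

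In the day 8 regenerating cells ribosomal protein genes took up 26.2% of the molecules counted, and this share differed between clusters of cells. The library gave 3356 cells with a median of 20817.5 UMIs. Of 81308045 UMIs 26.2% belonged to the 86 genes (exact 95% interval 26.23% to 26.25%, which covers counting error only), 14.6% to large and 11.6% to small subunit symbols. The median cell held 26.9%, with a range of 0.451% to 39.1% per cell. With 1 library there is no test between cell states. Droplets of 10 to 100 UMIs, taken as free RNA, held 27.8%.

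Clusters were built without the ribosomal protein genes and the mitochondrial genes. Shares ran from 30.8% to 4.99% of UMIs. The S phase-like cluster, led by histone genes and Rrm2 (282 cells), held 30.0%, and the mitotic-like cluster, led by Ube2c, Cdc20 and Cenpf (443 cells), 28.3%. The largest cluster (818 cells), left unnamed, held 30.8%. Its pooled UMIs were led by Hbb-bs and Ccl5 (97.9 and 55.4 CPM), and how many of its cells hold them was not examined. Ung and Mcm4 came next, at 2.06 and 2.02 times their level in the other cells. Clusters led by Lyz1 and Mptx1 (379 cells) and by Lyz1 with mitotic genes (203 cells), both unnamed, held 27.1% and 26.5%. Both clusters of deep crypt secretory-like cells, which support colonic stem cells as Paneth cells do in the small intestine, held less: 20.1% in the one led by Cma1, Ccl6 and Reg4 (474 cells) and 19.2% in the one led by Nov, Muc2 and Spink4 (283 cells), whose top 10 genes hold 3 markers of these cells and 2 of goblet cells, Muc2 and Spdef. The unnamed clusters led by Fabp6 and gasdermin C genes (202 cells) and by Reg3b and Reg3g (161 cells) held 22.4% and 18.3%, and the cells of the latter spread from 3.91% (10th percentile) to 28.8% (90th percentile). Absorptive colonocyte-like cells, led by Saa1, Car4 and Aqp8 (62 cells), held 4.99% (exact 95% interval 4.96% to 5.03%), and goblet-like cells, led by Zg16, Clca1 and Fcgbp (25 cells), 8.92%. Enteroendocrine-like cells, led by Pyy, Chgb and Chga (24 cells), held 27.4%. These are shares of all UMIs and not amounts per cell, so they also depend on the other transcripts counted. Zg16 alone was at 127200 CPM of UMIs in goblet-like cells, and Spink4 at 43730 in the cluster led by Nov. The part of such transcripts in the lower shares was not tested.

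**Figure D5:**
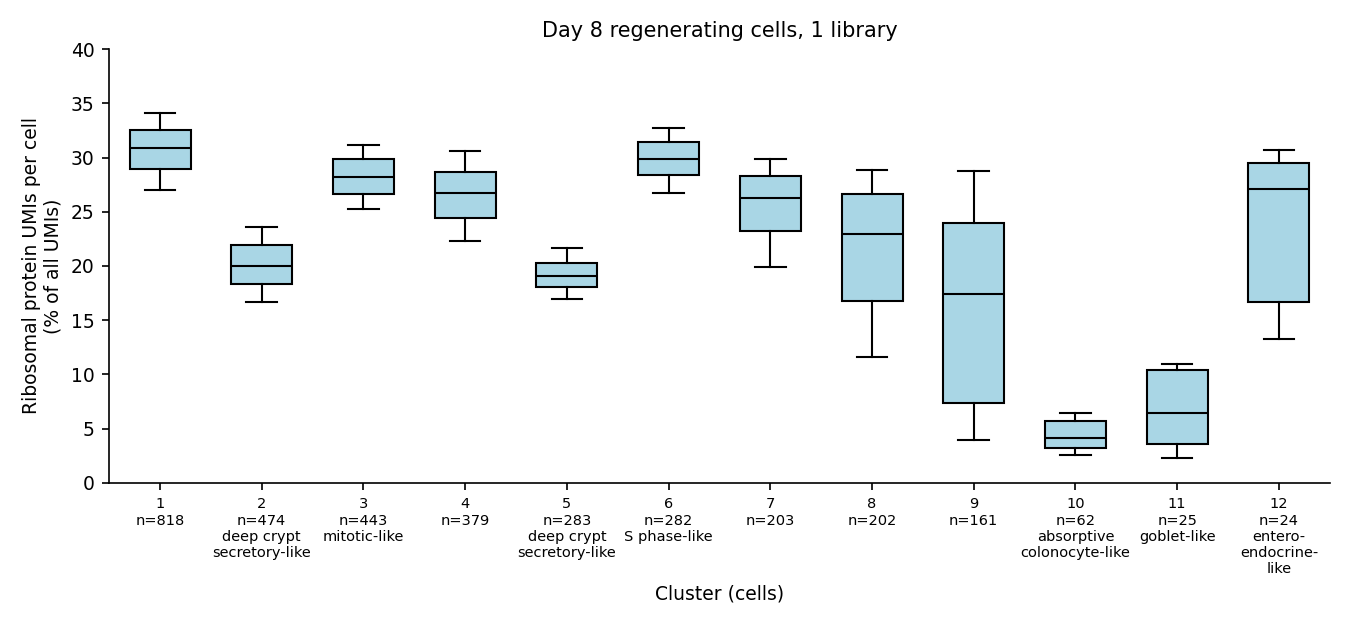
Ribosomal protein UMIs as a percentage of all UMIs per cell (vertical axis) in 12 clusters of day 8 cells (horizontal axis, with the number of cells and the name where one was given), with boxes for the quartiles, a line for the median and whiskers from the 10th to the 90th percentile. Medians run from 30.9% in cluster 1 to 4.14% in the absorptive colonocyte-like cluster 10.

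Thinning each cell to the same number of UMIs leaves its expected share unchanged. It therefore cannot show whether depth matters and only adds sampling noise. Thinned to 2000 UMIs per cell, which left out none of the 3356 cells, the medians were 29.98% in S phase-like, 19.98% and 19.1% in deep crypt secretory-like, 5.8% in goblet-like and 4.2% in absorptive colonocyte-like cells, beside unthinned medians of 29.9%, 19.96%, 19.0%, 6.45% and 4.14%. In 4 equal groups of 839 cells by depth the share was 21.2%, 24.8%, 27.1% and 27.5%, from the shallowest to the deepest. Median UMIs were 21622 in the absorptive colonocyte-like and 11924 in the goblet-like cluster. Mitochondrial genes made up a median of 11.2% of UMIs in the absorptive colonocyte-like cells and 4.62% to 7.25% elsewhere.

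The make-up of the ribosomal protein UMIs also differed between clusters. Ratios below compare a gene's share of these UMIs in a cluster with its share in all other cells, for genes with at least 1000 UMIs over all cells. In the small clusters some rest on few UMIs: Rpl36al had 140 and Rpl22l1 144 in goblet-like cells. Rps19bp1, Rps27rt and Rpl7l1 were at only 58.2, 67.0 and 81.8 CPM of UMIs over all cells. Their ratios in absorptive colonocyte-like and enteroendocrine-like cells rest on fewer UMIs still. The ratios were not tested. In absorptive colonocyte-like cells Rps27l (2.54), Rpl9 (2.36) and Rps27rt (2.33) had the highest ratios and Rpl12 (0.261), Rps2 (0.363) and Rpl3 (0.395) the lowest. In CPM of UMIs, Rpl12 was at 135 there and 2711 over all cells, and Rps2 at 435 and 6284, while Rps27l was at 255 and 531, so all were lower there and Rps27l the least. In goblet-like cells Rpl36al (2.61), Rps29 (1.81) and Rpl22l1 (1.62) were highest and Rps6 (0.625), Rpl14 (0.637) and Rpsa (0.651) lowest. The deep crypt secretory-like clusters shared part of this: the first had Rpl36al (1.48), Rpl22l1 (1.45) and Rps27rt (1.42) highest and Rps2 (0.776), Rps20 (0.784) and Rps19 (0.803) lowest, and the second Rpl22l1 (1.70), Rpl36al (1.58) and Rps27 (1.48) highest and Rps19 (0.701), Rps2 (0.730) and Rpsa (0.735) lowest. Mitotic-like cells ranged from 0.856 (Rps27), 0.888 (Rpl38) and 0.891 (Rps27rt) to 1.08 (Rpl14), 1.15 (Rps19bp1) and 1.204 (Rpl7l1), and S phase-like cells from 0.841 (Rpl22l1), 0.844 (Rpl36al) and 0.860 (Rpl7l1) to 1.07 (Rpl4), 1.08 (Rpsa) and 1.08 (Rps6). Enteroendocrine-like cells ranged from 0.812 (Rpl22l1), 0.892 (Rplp1) and 0.905 (Rps26) to 1.07 (Rps19bp1), 1.09 (Rpl18) and 1.09 (Rpl7l1).

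Bulk counts did not show all of these genes. In the regenerating libraries 24 of 77 core genes had a mean under 10 CPM, yet 22 of the 24 were within the top 130 of all genes by UMIs in the day 8 cells. Rps12 had a mean of 1.599 CPM in the regenerating libraries and rank 19 by UMIs, and Rps27a and Rpl28 ranks 20 and 24. Rpl26 had 1 count in the 15 bulk libraries together and rank 49. Rps27rt, a near copy of Rps27, had no bulk count and 67.0 CPM of UMIs in the day 8 cells, and reads of such copies cannot be assigned with certainty. Of the core genes 23 to 27 were under 10 CPM in each wild-type and regenerating library, and 12 and 14 in the knockout libraries (19 and 17 with library totals). In each hindgut library, made with another kit, 4 were, while 36.4% to 51.4% of adult reads and 29.9% to 39.96% of aligned hindgut reads had more than one alignment. Levels of regenerating cells by gene in the 2 assays had a Spearman rho of 0.19 over 77 core genes, as a description. The bulk CPM in it is not corrected for gene length. For such genes a fold change between libraries was used and the level was not.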

How the data were processed

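Bulk values are raw read counts per gene symbol as deposited by the authors, made with STAR 2.5.3a and HTSeq per the submitters' processing notes (builds GRCm38 and mm10; annotation and strand setting not given in the sources used here). The single-cell values are UMI counts per gene and droplet, deposited by the authors for 6794880 barcodes and made with Cell Ranger 3.0.2 per the submitters' notes. ChIP-seq samples were not analysed here. The 5 bulk entries that name no gene were kept out of totals and tests; reads with more than one alignment, by far the largest, are reported above.

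The genes, lists and tests were chosen with earlier results of these data known. Groups follow the labels. The 7 adult and 8 hindgut libraries were fitted separately with edgeR 4.0.16 (R 4.3.3): filterByExpr by group (13911 and 16481 genes tested), TMM scaling, group as the term, quasi-likelihood F test, two-sided, Benjamini-Hochberg adjustment over all tested genes and a threshold of 0.05. Of the 87 genes, Rpl3l, Rpl26 and Rps27rt were not tested in either fit, nor Rpl10l and Rpl39l in the adult fit. The fits were tested on simulated data. Common biological coefficients of variation were 0.513 and 0.310. All replicate pairs differed by more than sampling noise. Utp4, Fer1l6 and Sh2d6 of the lists matched no symbol in the bulk table, and Rack1 was found as Gnb2l1. One gene of the lists is not reported here. Named genes were the 4 highest and 4 lowest log2 fold changes among called genes with a mean of at least 5 CPM, a fixed set (stalk genes, Rpl5, Rpl11, Rpsa, Rps27a, Rps6, Rps3 and paralog pairs), in the lists the 2 called genes farthest up and down with Myc, and in each named cluster the 3 highest and 3 lowest ratios.

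Droplets with at least 2000 UMIs (3527) were kept if mitochondrial genes held at most 20% (168 removed). Scrublet marked 3 doublets (0.0893%), too few to count as a working doublet step, so doublets may remain. The cells were clustered with scanpy 1.11.5 and leiden. Alternatives were library totals, TMM without these genes, scaling to their sum, DESeq2 1.42.0, no low-count filter, only the groups compared, the replicate number as a block, and each library left out.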

Additional observations from a re-analysis of the deposited data

Results flagged for a closer look

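A signal outside the genes analysed came from Rpl14-ps1, a pseudogene of Rpl14 that the symbol rule leaves out. It had a mean of 344 CPM in wild-type libraries (335 to 353 CPM). It stood at 395 and 289 CPM in regenerating and 964 and 1109 CPM in knockout libraries, and in the hindgut at 31.8 and 33.2 CPM at E11 and 4.31 and 6.62 CPM at E16. Reads of Rpl14 and its pseudogene cannot be told apart with certainty.

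Droplets of 10 to 100 UMIs (71722 barcodes), which the single-cell results leave out, held 27.8% of their UMIs in ribosomal protein genes (exact 95% interval 27.77% to 27.85%), more than the 26.2% in cells. The share of 4.99% in absorptive colonocyte-like cells lies far below it.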

How the results depend on the processing

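Counts below are ribosomal protein genes called by edgeR unless DESeq2 is named. Calls over all genes moved with the setting too. From E12 to E14 and from E14 to E16 they were fewer whenever a library of the ages compared was left out. For regenerating against wild type, 289 of 14648 genes were called up with DESeq2 and 173 of 20111 without the low-count filter. From E11 to E12, 633 of 16441 were called down with DESeq2. From E14 to E16, 3667 of 16481 were called down with library totals. For regenerating against wild type, 2 were called up with DESeq2 and 1 without the low-count filter, and 0 to 1 down over the libraries left out. Rps27l ranged from -0.20 to 0.045 over the libraries left out, turning without regenerating replicate 2, and Rplp0 was at -0.016 when scaled to the genes' own sum. In the knockout the count called up stayed within 1.5 times of 69 except when scaled to the own sum (11), and the count called down was 1 with library totals and 9 on the own sum. Of the 69, 58 were called in every setting that left out a library and 47 in every setting other than the own sum.

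Directions turned in the knockout with library totals for Rplp0 (-0.15), Rps6 (-0.89), Rpl4 (-0.60) and Rpl3 (-0.81). Rps6 also turned without the filter (-0.0022), without knockout replicate 2 and without regenerating replicate 2 (-0.64 to 0.53 over the libraries left out). On the own sum they turned for Rplp0 (-1.03), Rpl7 (-0.85), Rpl7a (-0.78), Rps2 (-0.76), Rpsa (-0.37), Rps3 (-0.63), Rps6 (-1.81), Rpl4 (-1.50), Rpl3 (-1.66), Rps19bp1 (-0.065), Rpl5 (-0.49), Rpl10 (-0.51) and Rps4x (-0.40), which follows from removing the shared rise.

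From E11 to E12 the count called down was 0 on the own sum, 26 with DESeq2, 2 without the filter, 0 with only these groups fitted and 0 to 2 over the libraries left out, where the count called up was 0 to 1. From E12 to E14 it was 3 down and 2 up on the own sum and 15 to 72 down over the libraries left out. From E14 to E16 it was 40 down with library totals, 4 down and 1 up on the own sum, and 6 to 38 down over the libraries left out. From E11 to E16 it was 22 down and 9 up on the own sum, and 76 of the 80 were called in every setting other than the own sum. On the own sum, values turned from E12 to E14 for Rps6 (0.16), Rpl4 (0.19), Rps2 (0.19) and Rpl3 (0.19), and from E11 to E16 for Rplp0 (0.55), Rpl4 (0.64), Rpl7l1 (0.68), Rps19bp1 (0.75), Rplp1 (0.019), Rpl5 (0.073), Rpsa (0.15), Rps6 (0.35), Rpl3 (0.36), Rpl36al (0.46), Rpl10 (0.18) and Rps27 (0.91). Other causes were not tested.

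With the replicate number as a block, 62 of the 69 knockout calls were kept, 69 of 71 from E12 to E14, 20 of 23 from E14 to E16, 79 of 80 from E11 to E16 and 0 from E11 to E12. Deviations of same-numbered libraries had correlations of -0.067 to 0.13, so the numbers were not taken as pairs. In single cells the share was 26.26% with at least 5000 UMIs, 26.7% with at most 10% mitochondrial UMIs and 27.8% of the total without mitochondrial genes. A bulk total without mitochondrial genes was not run because the bulk table lists none. Genes under 10 CPM have wide errors, which limits what depth can show for them.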
